A study of Mus musculus with 4 samples.

Results

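The genes described here encode the chains of the collagens and laminins, the main structural proteins of the extracellular matrix, in whole retinas of adult mice that had lost Nrl. They were chosen by symbol alone (Col, a number, a and a number, or Lama, Lamb or Lamc and a digit), and 53 of the 19421 genes measured on the arrays were members. In the knockout mice both copies of Nrl, the rod photoreceptor transcription factor, were floxed (Nrlflox/flox; CAG-CreERTM), and the control mice were Nrlflox/+; CAG-CreERTM, so that they kept an intact allele. CAG is a promoter active in most cell types, so the tamoxifen-dependent Cre was not limited to rods. All mice received 4-hydroxytamoxifen intraperitoneally once a day on postnatal days 42 to 44, and retinas were taken on postnatal day 63. There were 2 arrays per genotype, and each held the RNA of 4 retinas pooled from 2 animals. The sources used here give no strain.

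Laminins are cross-shaped trimers of an α, a β and a γ chain that polymerise on cell surfaces. Type IV collagen forms a second network beneath them, and together they make the basement membrane. In the retina, basement membranes lie at the inner limiting membrane, where the end feet of Müller glia meet the vitreous, around blood vessels, and under the retinal pigment epithelium in Bruch's membrane. Fibrillar collagens form the banded fibres of the sclera, of vessel walls and of the vitreous, and are not a major product of retinal neurons. The comparison asks whether the genes of either kind of matrix differed 19 days after the last injection.

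The genes of type IV collagen lie in head-to-head pairs (Col4a1 with Col4a2, Col4a3 with Col4a4, Col4a5 with Col4a6), and each pair is transcribed in opposite directions from neighbouring starts. Promoter windows from RefSeq (GRCm38.p6), 250 bases before to 50 after a gene's start, were found for 39 of the 53 members. The windows of Col4a1 and Col4a2 shared 78 bases, and their starts lay 21 bases apart. The starts of Col4a5 and Col4a6 lay 1343 bases apart. Windows are shown for a member of each type IV pair, for both genes of the X-linked pair, and for Col1a2 and Col3a1 of the fibrillar group for contrast. Each is written 5′ to 3′ on the strand of its gene, and capitals mark matches on either strand to the GC box GGGCGG, the CCAAT box CCAAT or the TATA box TATAAA. The windows are chr8:11312777-11313076 (minus strand), chr1:82586800-82587099 (minus), chrX:141475169-141475468 (plus), chrX:141474027-141474326 (minus), chr6:4505368-4505667 (plus) and chr1:45311288-45311587 (plus), in the order printed.
Col4a1: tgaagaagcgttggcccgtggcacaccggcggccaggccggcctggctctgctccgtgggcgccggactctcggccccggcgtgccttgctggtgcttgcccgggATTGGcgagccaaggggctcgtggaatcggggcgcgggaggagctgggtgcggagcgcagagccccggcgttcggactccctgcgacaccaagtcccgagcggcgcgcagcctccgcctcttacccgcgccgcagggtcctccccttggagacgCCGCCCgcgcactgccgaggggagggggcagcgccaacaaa
Col4a4: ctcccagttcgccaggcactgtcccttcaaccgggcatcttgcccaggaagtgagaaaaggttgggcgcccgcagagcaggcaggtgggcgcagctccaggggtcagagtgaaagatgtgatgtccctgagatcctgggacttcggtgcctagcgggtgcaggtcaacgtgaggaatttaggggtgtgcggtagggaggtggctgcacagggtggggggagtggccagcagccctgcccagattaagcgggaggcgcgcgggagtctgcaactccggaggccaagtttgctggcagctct
Col4a5: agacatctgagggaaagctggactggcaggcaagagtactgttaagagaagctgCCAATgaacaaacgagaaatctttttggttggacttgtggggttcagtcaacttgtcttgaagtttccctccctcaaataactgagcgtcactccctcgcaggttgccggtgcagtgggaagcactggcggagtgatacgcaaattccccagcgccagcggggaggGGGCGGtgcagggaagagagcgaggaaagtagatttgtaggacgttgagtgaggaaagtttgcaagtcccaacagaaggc
Col4a6: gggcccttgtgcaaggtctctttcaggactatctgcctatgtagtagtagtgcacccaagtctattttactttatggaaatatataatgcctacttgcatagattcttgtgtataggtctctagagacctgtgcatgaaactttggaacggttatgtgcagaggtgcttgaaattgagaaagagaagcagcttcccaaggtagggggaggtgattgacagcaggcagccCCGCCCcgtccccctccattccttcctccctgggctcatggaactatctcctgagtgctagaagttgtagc
Col1a2: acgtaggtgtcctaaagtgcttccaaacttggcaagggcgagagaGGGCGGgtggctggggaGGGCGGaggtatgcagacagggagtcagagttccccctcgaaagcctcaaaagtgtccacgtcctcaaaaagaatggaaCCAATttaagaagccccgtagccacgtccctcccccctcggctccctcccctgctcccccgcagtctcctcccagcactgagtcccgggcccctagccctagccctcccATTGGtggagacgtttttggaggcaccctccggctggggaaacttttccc
Col3a1: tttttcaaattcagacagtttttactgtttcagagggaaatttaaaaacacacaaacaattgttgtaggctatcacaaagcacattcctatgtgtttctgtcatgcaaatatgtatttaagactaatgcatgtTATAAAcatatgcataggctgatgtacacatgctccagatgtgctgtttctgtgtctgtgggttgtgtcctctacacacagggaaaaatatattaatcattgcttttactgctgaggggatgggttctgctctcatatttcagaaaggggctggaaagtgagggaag

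The GC box was present in 7 of 10 windows of laminin and type IV collagen genes and in 6 of 8 fibrillar windows, against 35.7% of all 32851 windows of the same length. The CCAAT box was in 4 of 10 and 3 of 8, against 37.4%. The TATA box was in 0 of 10 and 2 of 8, against 13.6%. Col4a4 had none of these letters in its window, and Col3a1 had the TATA box alone. The GC content was 74.0% for Col4a1 and 37.7% for Col3a1. The windows of Col4a1 and Col4a2 overlap, and a GC box in their shared bases counts for both. Each member was given a single window, whereas the set of all windows was not cut to a single window per gene. These are descriptions of the letters in the windows, not of bound sites.

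The values are log2 signals as deposited, and every fold change below is a log2 difference, knockout less control. Array medians ran from 5.99 to 6.04, and Pearson's r between arrays over all probe sets, which are not independent replicates, ran from 0.987 to 0.990. Nrl had levels of 7.57 and 7.05 in knockout and 8.21 and 8.13 in control, a log2 difference of −0.86 (SE 0.18, limma adjusted p = 0.289), lower in both knockout pools though not past the threshold. Of the rod genes that define the tissue, Gnat1, the rod transducin α subunit, had 9.46 and 9.76 in knockout and 12.65 and 12.58 in control, and Sag, rod arrestin, had 11.32 and 11.34 in knockout and 11.66 and 11.63 in control. Replicate numbers followed the sex of the pools, with levels of the X inactivation RNA Xist of 4.07 and 4.09 in replicate 1 and 10.66 and 10.47 in replicate 2 of knockout and control. No detection values were used, so whether a member with a low signal was above background is unknown, and levels of different genes come from different probes and are not compared. In whole retina, fewer cells of a type and less RNA per cell cannot be told apart. The pools were of different animals. The limma p-values rest on the spread between the pools of a genotype, which includes their difference in sex. Part of that error is borrowed from all genes (4.17 of 6.17 degrees of freedom).

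None of the 53 collagen and laminin genes passed the test between knockout and control. Of all genes, 39 of 19421 (0.201%) were called by limma at an adjusted p under 0.05, whereas 0 members were called, and the lowest adjusted p among them was 0.715. At an unadjusted p under 0.05 there were 0 members, against 7.07% of all genes (3.71% higher and 3.37% lower). Member fold changes ran from −0.24 for Col4a4 to 0.31 for Col8a2, and 6.71% of all genes had a larger absolute change than Col8a2. The smallest change among the 39 called genes was 0.88. The median SE was 0.11 for the members and 0.11 over all genes.

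These data also bound how large a change in signal could have been. The 95% interval of the fold change lay within −1 and 1, that is, short of a 2-fold change of signal in either direction, for 53 of 53 members. It lay within −0.50 and 0.50 for 50 members, and the other 3 were Col4a4 (−0.62 to 0.14), Col8a2 (−0.0041 to 0.62) and Col23a1 (−0.16 to 0.57). Over all 19421 genes the interval lay within −1 and 1 for 19189 and within −0.50 and 0.50 for 15068. An interval within −1 and 1 was thus common to nearly all genes on these arrays. The intervals use limma's moderated error and are not adjusted for the number of genes. They bound the array signal, and for a probe set at background they do not bound the RNA.

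**Figure D1:**
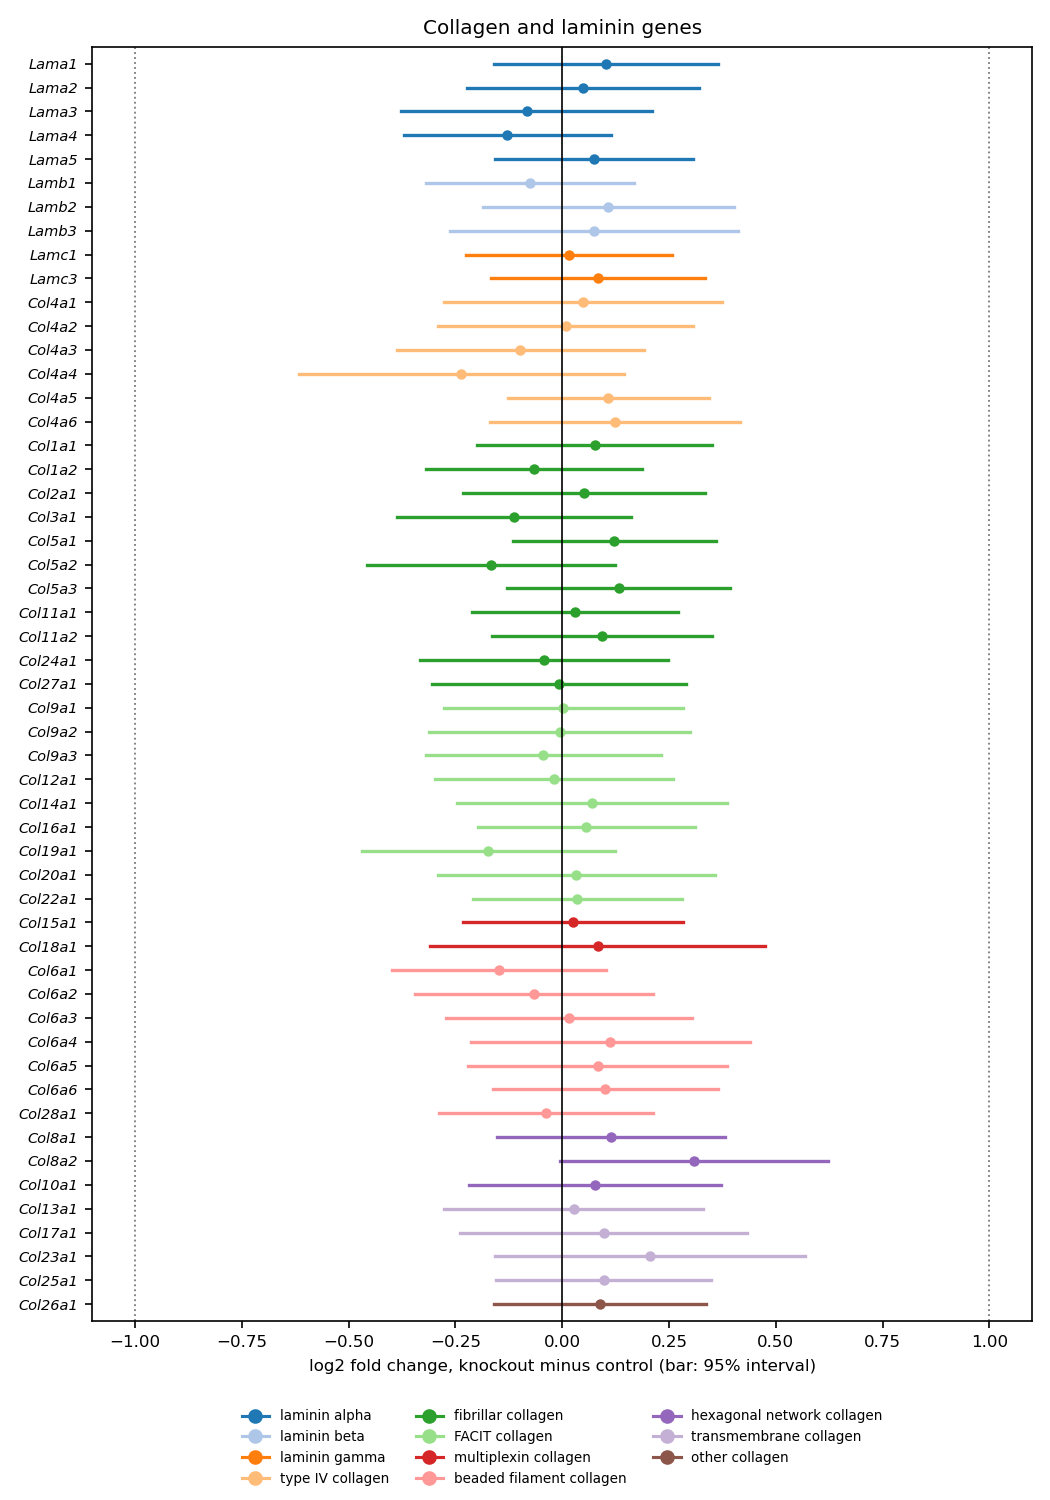
Log2 fold change (knockout minus control, x axis) of each of the 53 collagen and laminin genes, with bars for the 95% interval from limma (2 arrays per group) and colours for the class. Dotted lines mark a 2-fold change of signal, which no interval reaches, and every interval includes 0.

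In 36 members the knockout mean lay above the control mean and in 17 below, with a median of 0.049 against −0.0026 over all genes. This split moved with the arrays used. Without control replicate 1 it was 18 above and 35 below, without control replicate 2 41 and 12, without knockout replicate 1 37 and 16, and without knockout replicate 2 27 and 26. The mean log2 level of the members was 6.01 on the array of control replicate 1 and 6.11 on that of control replicate 2, with 6.06 and 6.11 in the knockout pools, so both knockout arrays lay between the control arrays. The count of 39 calls over all genes was likewise 0 without either control replicate (1355 and 1328 genes at an unadjusted p under 0.05), 7 without knockout replicate 1 and 11 without knockout replicate 2, while the count of members called was 0 in each case.

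The gap between replicates was commonly wider than the difference between genotypes. In 42 of 53 members the genotype difference was smaller than the mean gap between replicates of a genotype, as it was in 64.2% of all genes. The 2 knockout values lay entirely above or below the 2 control values in 11 members (20.8%), 7 higher and 4 lower, against 35.4% of all genes (17.0% higher, 18.4% lower). The 7 higher were Lama5, Col4a5, Col5a1, Col5a3, Col8a2, Col25a1 and Col26a1, and the 4 lower were Lama4, Lamb1, Col19a1 and Col6a1. Replicate 2 lay above replicate 1 in both genotypes in 27 members (50.9%), against 30.4% of all genes. The median gap, replicate 2 minus replicate 1, was 0.12 in control and 0.052 in knockout. The sex of the pools and any other difference between the replicates cannot be told apart here.

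**Figure D2:**
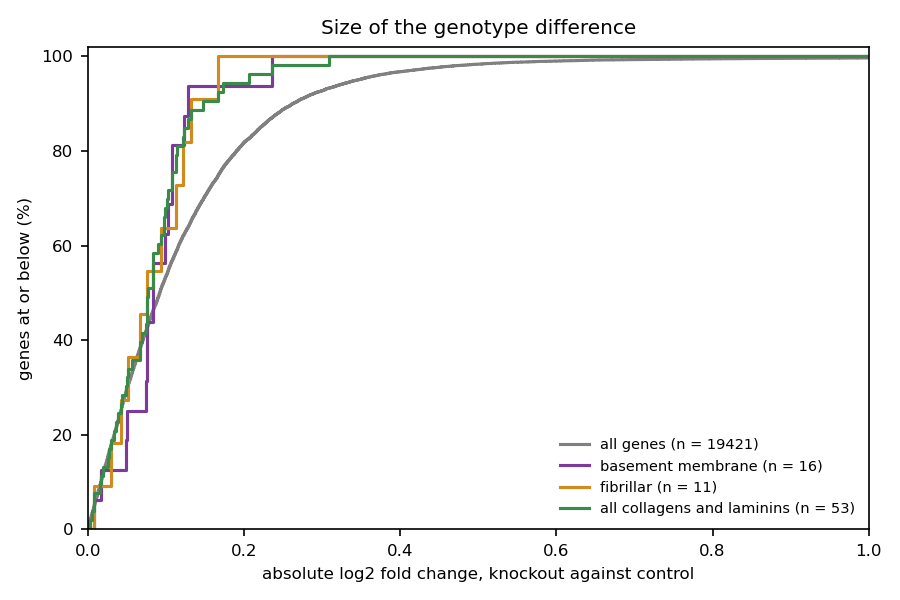
Cumulative share of genes (y axis, percent) at or below each absolute log2 fold change (x axis) for all 19421 genes, all 53 collagens and laminins, the 16 basement membrane members and the 11 fibrillar members. The curves of the members reach 100% at 0.31 or less, where 6.71% of all genes still lie further right.

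The basement membrane genes measured were 16, made up of 10 laminin chains and the 6 chains of type IV collagen. None was called, 11 lay above 0 and 5 below, and the median was 0.049. Of the laminin α chains, Lama1, the chain of early basement membranes and of the inner limiting membrane, had 5.48 and 5.64 in knockout and 5.49 and 5.42 in control, a log2 difference of 0.10 (SE 0.11, limma adjusted p = 0.923). Knockout replicate 1 lay between the controls, so the groups overlapped. Lama4, a chain of vascular basement membranes, had 4.72 and 4.72 in knockout and 4.80 and 4.90 in control, a fold change of −0.13 (SE 0.099, limma adjusted p = 0.876). Lama5, a broadly made chain that is also found in vessels, had 5.82 and 5.81 in knockout and 5.75 and 5.73 in control, a fold change of 0.074 (SE 0.096, limma adjusted p = 0.946). The pools of each genotype nearly coincided for Lama4 in knockout and for Lama5 in both genotypes, and the groups were apart in opposite directions for these 2 vascular chains. Lama2, known for muscle and nerve, and Lama3, known for epithelia, had 0.050 and −0.083, with overlapping groups.

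Of the β and γ chains, Lamb2, a chain of the inner limiting membrane and of synaptic laminins whose loss disturbs photoreceptors in mice, had 6.43 and 6.25 in knockout and 6.14 and 6.33 in control, a fold change of 0.11 (SE 0.12, limma adjusted p = 0.932). Its knockout values enclosed control replicate 2. Lamb1, the alternative β chain, had −0.075 (SE 0.10), with knockout values of 6.30 and 6.40 just below control values of 6.41 and 6.44. Lamc1, the γ chain of most laminins, had 6.53 and 6.52 in knockout and 6.46 and 6.56 in control, a fold change of 0.016 (SE 0.099, limma adjusted p = 0.990). Both of its knockout values fell between the controls. Lamb3, of the epithelial laminin of skin, had 0.075, with the wider gap in knockout (5.25 and 5.60), and Lamc3 had 0.084.

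**Figure D3:**
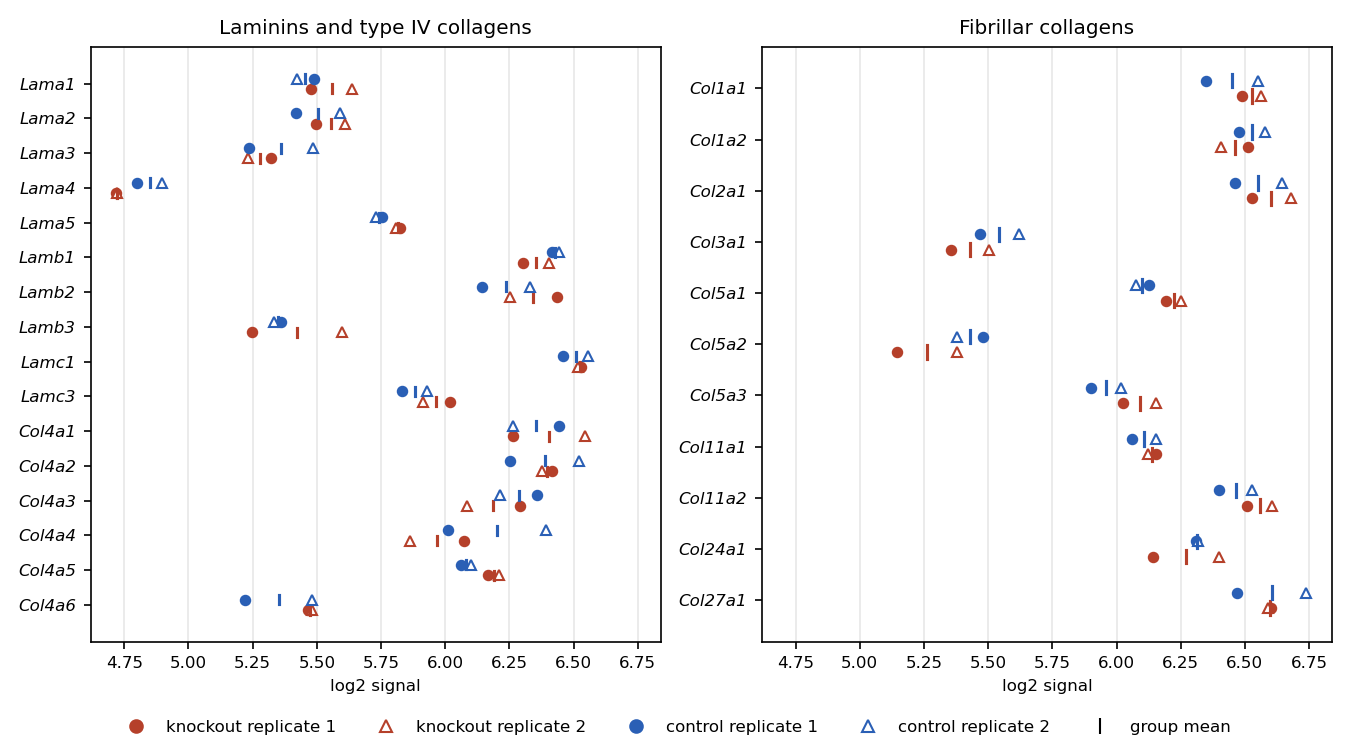
Log2 signal (x axis) of each basement membrane gene (left, 16 genes) and each fibrillar collagen gene (right, 11 genes), with circles for replicate 1, triangles for replicate 2, red for knockout, blue for control and a vertical tick for the mean of 2. Knockout and control values are interleaved or close for every gene, as for Col4a2, whose means were 6.40 and 6.39.

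Col4a1 and Col4a2 encode the chains of type IV collagen found in nearly all basement membranes and are made largely by vascular cells in the retina. Col4a1 had 6.26 and 6.54 in knockout and 6.44 and 6.27 in control, a log2 difference of 0.049 (SE 0.13, limma adjusted p = 0.982). Col4a2 had 6.41 and 6.38 in knockout and 6.25 and 6.52 in control, a fold change of 0.0080 (SE 0.12, limma adjusted p = 0.996). The arrays fell in different orders for these neighbours. The highest value of Col4a1 was in knockout replicate 2 and that of Col4a2 in control replicate 2, so the gaps between pools were not shared by the pair.

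Col4a3 and Col4a4 are chains of specialised basement membranes such as those of the kidney glomerulus. Col4a4 had 6.07 and 5.86 in knockout and 6.01 and 6.39 in control, the lowest fold change of all members, −0.24 (SE 0.16, limma adjusted p = 0.847). This came from replicate 2, where knockout minus control was −0.53, against 0.061 in replicate 1. Its neighbour Col4a3 had −0.098, with values of 6.29 and 6.09 in knockout and 6.36 and 6.21 in control.

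Col4a5 and Col4a6, the X-linked pair, had similar differences. Col4a5 had 6.17 and 6.21 in knockout and 6.06 and 6.10 in control, a fold change of 0.11 (SE 0.097, limma adjusted p = 0.903), with the groups apart. Col4a6 had 5.47 and 5.48 in knockout and 5.22 and 5.48 in control, a fold change of 0.12 (SE 0.12, limma adjusted p = 0.913). Here control replicate 1 alone stood low, and the other 3 arrays were nearly level. The replicates differed in sex, and Col4a5 differed between them by 0.042 in knockout and 0.042 in control.

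All 11 listed fibrillar genes were measured. None was called, 6 lay above 0 and 5 below, and the median was 0.029. Col1a1 and Col1a2 encode the chains of type I collagen, the collagen of sclera and scar tissue. Col1a1 had 6.49 and 6.56 in knockout and 6.35 and 6.55 in control, a log2 difference of 0.076 (SE 0.11, limma adjusted p = 0.956). Col1a2 had 6.51 and 6.41 in knockout and 6.48 and 6.58 in control, a fold change of −0.067 (SE 0.10, limma adjusted p = 0.961). The signs of these partner chains were opposite and both groups overlapped. Col3a1, of type III collagen in vessel walls, had 5.36 and 5.50 in knockout and 5.47 and 5.62 in control, a fold change of −0.11 (SE 0.11, limma adjusted p = 0.916), and the replicates gave −0.11 and −0.12 separately. Col2a1, the main fibril collagen of the vitreous and of cartilage, had 6.53 and 6.68 in knockout and 6.46 and 6.64 in control, a fold change of 0.051 (SE 0.12, limma adjusted p = 0.977).

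Type V collagen, which sets the diameter of type I fibrils, held the fibrillar genes with the smallest p-values. Col5a2 had 5.15 and 5.38 in knockout and 5.48 and 5.38 in control, a fold change of −0.17 (SE 0.12, limma adjusted p = 0.863). Its low value was that of knockout replicate 1, and replicate 2 of both genotypes coincided. Col5a1 had 6.19 and 6.25 in knockout and 6.13 and 6.07 in control, a fold change of 0.12 (SE 0.098, limma adjusted p = 0.887), and Col5a3 had 6.03 and 6.16 in knockout and 5.90 and 6.02 in control, a fold change of 0.13 (SE 0.11, limma adjusted p = 0.890). For Col5a1 and Col5a3 the groups were apart, by a gap smaller than the SE in each case. The remaining fibrillar genes, Col11a1, Col11a2, Col24a1 and Col27a1, lay between −0.043 and 0.093.

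The basement membrane and the fibrillar genes lay close in their median genotype difference. The median log2 fold changes, 0.049 and 0.029, differed by 0.020, and no test was run on this difference because the members were chosen with results of these data known. The mean level of the basement membrane genes minus that of the fibrillar genes was −0.27 and −0.35 in knockout and −0.31 and −0.32 in control, so the knockout values enclosed the control values. Without knockout replicate 1 the difference of medians was −0.059, without control replicate 2 −0.033, and with genes below the 50th percentile of mean signal left out, which kept 8 and 9 members, −0.039. Its sign was therefore not fixed by these arrays. Without control replicate 1 both medians turned negative, at −0.017 and −0.041. The 95% intervals of the 16 and 11 genes reached from −0.62 to 0.42 and from −0.46 to 0.39.

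**Figure D4:**
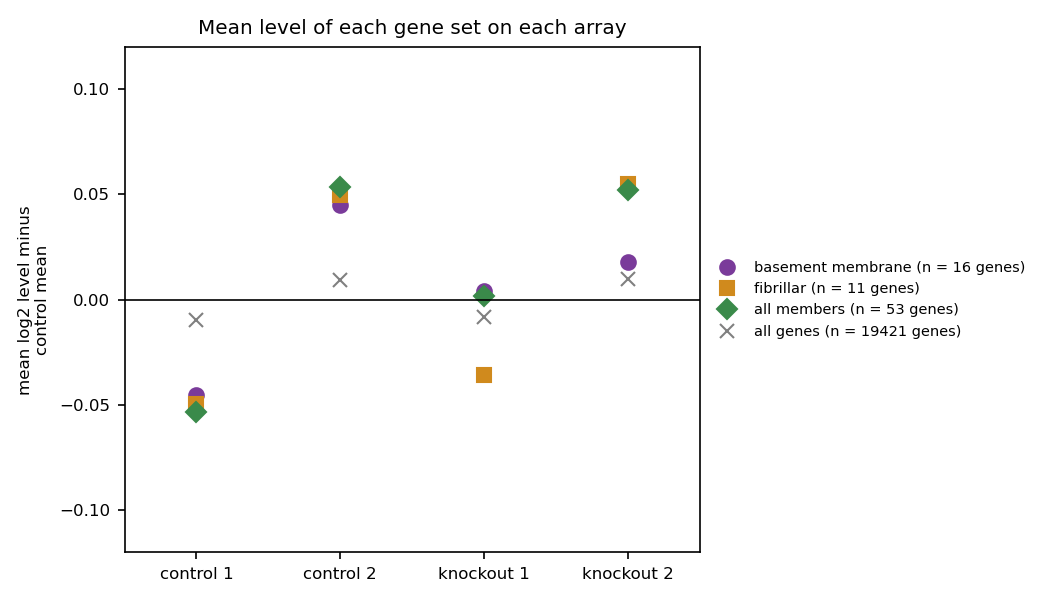
Mean log2 level of each gene set on each array (y axis), expressed as the difference from the mean of the 2 control arrays, for the basement membrane, fibrillar and all collagen and laminin genes and for all 19421 genes. The array of control replicate 1 is lowest for each of the member sets, and the knockout arrays lie mostly between the controls.

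The hexagonal network collagens held the member nearest to a difference. Col8a2, a chain of type VIII collagen known from Descemet's membrane of the cornea, had 5.94 and 5.92 in knockout and 5.77 and 5.47 in control. Both knockout values were above both controls, with a log2 difference of 0.31 (SE 0.13, limma adjusted p = 0.715) and an unadjusted p of 0.0522. The gap between its control pools, −0.30 from replicate 1 to replicate 2, was about as large as the difference between genotypes, and knockout minus control was 0.17 in replicate 1 and 0.45 in replicate 2. Without control replicate 1 the fold change of Col8a2 was 0.46, and without control replicate 2 it was 0.16. It was 0.30 without knockout replicate 1 and 0.32 without knockout replicate 2. Col8a1, the partner chain, had 6.60 and 6.65 in knockout and 6.60 and 6.42 in control, a fold change of 0.11 (SE 0.11, limma adjusted p = 0.910). Col10a1, of cartilage growth plates, had 6.31 and 6.21 in knockout and 6.06 and 6.31 in control, a fold change of 0.077 (SE 0.12, limma adjusted p = 0.961). All 3 genes of this class lay above 0 and none was called.

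The transmembrane collagens, which sit in the cell membrane and shed their outer part, also all lay above 0, with 0 of 4 called. Col23a1 had 6.53 and 6.33 in knockout and 6.40 and 6.05 in control, a fold change of 0.21 (SE 0.15, limma adjusted p = 0.864). Control replicate 2 was the low array. Col25a1, a neuronal collagen, had 0.098 (SE 0.10, limma adjusted p = 0.925), with 5.88 and 5.93 in knockout and 5.87 and 5.74 in control. Col17a1, of hemidesmosomes in epithelia, had 5.80 and 6.04 in knockout and 5.69 and 5.96 in control, a fold change of 0.097 (SE 0.14, limma adjusted p = 0.955). In both genotypes its replicate 2 exceeded replicate 1, by 0.24 and 0.26. Col13a1 had 0.027 and Col26a1, which belongs to no other class, 0.089.

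FACIT collagens, which coat fibrils without forming them, numbered 9 measured of 10 listed. Col21a1 was not analysed here. The median was 0.0029, with 5 above 0, 4 below and 0 called. Col9a1, a chain of the type IX collagen of the vitreous, had 6.84 and 6.80 in knockout and 6.70 and 6.93 in control, a fold change of 0.0029 (SE 0.12, limma adjusted p = 1), and its partners Col9a2 and Col9a3 had −0.0053 and −0.044. These chains were thus close to 0 together. Col19a1, made by some neurons, had 5.38 and 5.46 in knockout and 5.46 and 5.72 in control, a fold change of −0.17 (SE 0.12, limma adjusted p = 0.861). Col16a1 had 6.39 and 6.49 in knockout and 6.33 and 6.44 in control, a fold change of 0.057 (SE 0.10, limma adjusted p = 0.968). Col14a1 had 5.41 and 5.57 in knockout and 5.29 and 5.56 in control, a fold change of 0.069 (SE 0.13, limma adjusted p = 0.969). Replicate 2 was higher than replicate 1 in both genotypes for Col14a1, Col16a1 and Col19a1. Col12a1, Col20a1 and Col22a1 lay between −0.019 and 0.035.

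The chains of beaded filaments, type VI collagen and Col28a1, had a median of 0.016 over 7 genes, with 4 above 0, 3 below and 0 called. Col6a1, an obligatory chain of type VI collagen, had 6.55 and 6.42 in knockout and 6.61 and 6.65 in control, a fold change of −0.15 (SE 0.10, limma adjusted p = 0.857), and the groups did not overlap. Its partners Col6a2 and Col6a3 had −0.066 and 0.016, with overlapping groups. Col6a6 had 6.53 and 6.67 in knockout and 6.44 and 6.56 in control, a fold change of 0.10 (SE 0.11, limma adjusted p = 0.927), at the brighter of its 2 probe sets. The other probe set of Col6a6 stood at −0.20, and their mean was −0.050. Col6a5 also had 2 probe sets, at 0.083 and −0.29, and the sign for both genes depends on the probe set. Col6a4 had 5.73 and 5.79 in knockout and 5.49 and 5.81 in control, a fold change of 0.11 (SE 0.13, limma adjusted p = 0.940), and Col28a1 −0.038.

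The multiplexins of the basement membrane zone, Col18a1 and Col15a1, had 0.083 and 0.025. Col18a1, the source of endostatin and a collagen of the inner limiting membrane, had 5.83 and 5.85 in knockout and 5.53 and 5.98 in control, with an SE of 0.16 and a limma adjusted p of 0.972. It was the least precise member, since its control pools were 0.46 apart. Without control replicate 2 its fold change was 0.31 at an unadjusted p of 0.0483 and an adjusted p of 0.729, and without control replicate 1 it was −0.15. Col7a1 was not analysed here. Adding the multiplexins to the laminins and type IV collagens left the median at 0.049 with 0 of 18 called.

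Genes that process, bind or remodel these chains also held no call, though some stood further from 0 than any chain. In the list of collagen biosynthesis and crosslinking, 0 of 25 measured genes were called, the median was 0.012, and 6 were higher and 0 lower at an unadjusted p under 0.05, where 3.71% of all genes were higher. Pcolce, which enhances the cleavage of fibrillar procollagens, had 7.18 and 7.25 in knockout and 6.12 and 6.43 in control, a log2 difference of 0.94 (SE 0.13, limma adjusted p = 0.110). Both knockout values were above both controls. In the whole list the groups did not overlap in 9 of 25 genes (36%), against 35.4% of all genes. Loxl4, a lysyl oxidase that crosslinks collagen, had 5.60 and 5.95 in knockout and 5.41 and 5.22 in control, a fold change of 0.46 (SE 0.15, limma adjusted p = 0.596). The other 4 were Adamts3, Adamts14, Plod3 and Lox, at 0.38, 0.26, 0.24 and 0.28, and were chosen after their values were seen. Adamts3 had 16 probe sets and Loxl4 had 2, and the values given are those of the brightest alone.

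Of 17 basement membrane partners 0 were called, with a median of 0.017. By limma 1 was higher and 0 lower at an unadjusted p under 0.05 (5.88%, against 7.07% of all genes in either direction). That gene was Sparc, a collagen-binding glycoprotein, with 9.23 and 9.24 in knockout and 8.56 and 8.84 in control and a fold change of 0.54 (SE 0.13, limma adjusted p = 0.358). Egflam, which encodes pikachurin of the photoreceptor synapse, had 0.24 (SE 0.11, adjusted p = 0.747) by limma. Of 15 laminin and collagen receptors 0 were called. At an unadjusted limma p under 0.05, 2 were higher and 0 lower (13.3%, against 7.07% of all genes in either direction). Itga6 had 5.73 and 5.82 in knockout and 5.49 and 5.46 in control, a fold change of 0.30 (SE 0.099, limma adjusted p = 0.603), and Itgb4 had 5.92 and 5.87 in knockout and 5.57 and 5.70 in control, a fold change of 0.26 (SE 0.10, limma adjusted p = 0.680). The groups were apart for both of these integrin genes. In the whole receptor list the groups did not overlap in 4 of 15 genes (26.7%), against 35.4% of all genes. The median of the receptors was 0.016.

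Among 17 matrix proteases and inhibitors 0 were called, with a median of 0.0044. By limma 2 were higher and 0 lower at an unadjusted p under 0.05 (11.8%, against 7.07% of all genes in either direction). Adamts1, a protease of matrix proteoglycans, had 7.01 and 7.25 in knockout and 6.20 and 6.58 in control, a fold change of 0.74 (SE 0.16, limma adjusted p = 0.317). Timp1, an inhibitor of matrix metalloproteinases, had 4.87 and 5.04 in knockout and 4.69 and 4.63 in control, a fold change of 0.29 (SE 0.11, limma adjusted p = 0.655). Both genes were higher in each knockout pool than in either control pool. In the whole list the groups did not overlap in 7 of 17 genes (41.2%), against 35.4% of all genes. Of 16 other interstitial matrix genes 0 were called, 14 lay above 0 and 2 below, and the median was 0.084. Fn1, fibronectin, had 0.24 (SE 0.097, adjusted p = 0.699) and Ogn, a small leucine-rich proteoglycan, 0.22 (SE 0.10, adjusted p = 0.763) by limma. Of 15 genes of TGF-β signalling to matrix 0 were called, with a median of 0.025. Ccn1, a matricellular protein, had 0.41 (SE 0.14, adjusted p = 0.631), and the receptor Tgfbr1 had 0.18 (SE 0.12, adjusted p = 0.860).

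**Figure D5:**
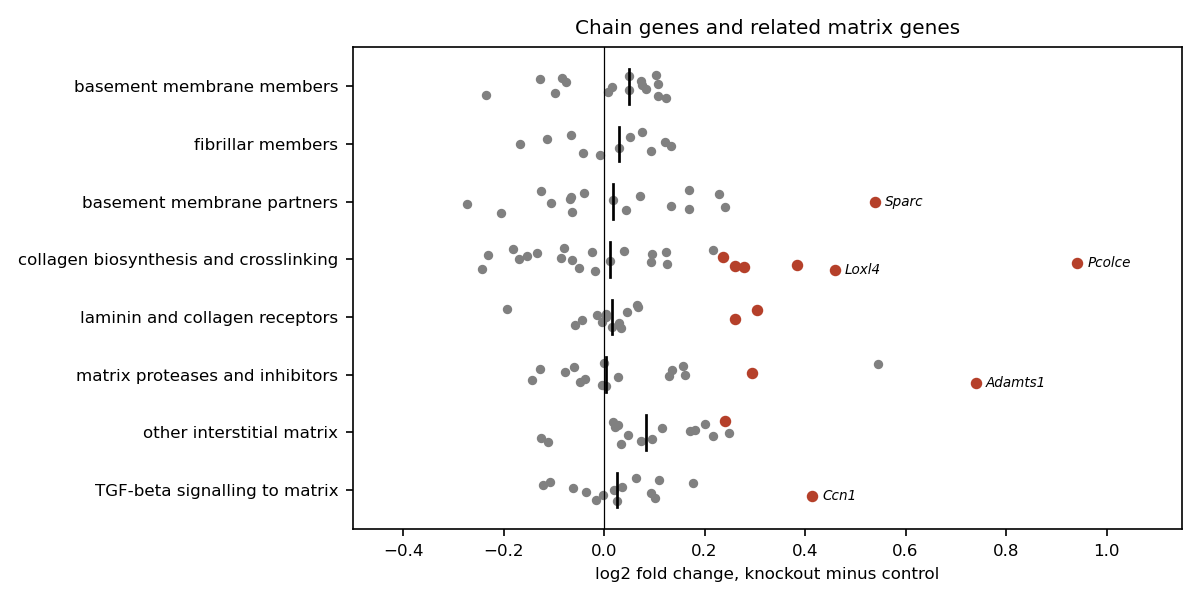
Log2 fold change (knockout minus control, x axis) of each measured gene in the basement membrane and fibrillar groups and in 6 lists of related genes, with red for an unadjusted limma p under 0.05 and a vertical tick for the median. All medians lie between 0 and 0.10, no chain gene is red, and Pcolce, Adamts1 and Sparc lie furthest to the right among the red points.

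Markers of vascular and connective tissue cells, which make many of these chains, held no call either. The medians were −0.036 for 10 endothelial, 0.029 for 10 mural cell and 0.13 for 10 fibroblast and sclera markers, with 0 called in each. At an unadjusted limma p under 0.05, 1 endothelial marker was lower, Emcn (−0.28, named after its value was seen). At that threshold 0 mural cell and 0 fibroblast and sclera markers differed, against 7.07% of all genes. Pecam1 and Cdh5 of endothelium had −0.30 and −0.14, Pdgfrb and Cspg4 of mural cells 0.042 and 0.029, and Pdgfra and Dcn of fibroblasts 0.088 and 0.18. All 10 fibroblast and sclera markers lay above 0, where 49% of all genes did. Their groups did not overlap in 2 of 10 (20%), against 35.4% of all genes. Their summed linear signal was 372.4 and 357.5 in knockout and 320.1 and 359.2 in control, so the ranges overlapped. The part of these cells in the fibrillar values was not tested.

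Markers of the tissues next to the retina held no call. Retinal pigment epithelium and choroid markers had a median of −0.12 and 0 of 10 called, with Rpe65 at 6.72 and 6.37 in knockout and 7.31 and 6.60 in control and Best1 at a fold change of −0.079. At an unadjusted limma p under 0.05, 1 of these markers was lower and 0 higher, namely Dct (−0.32, named after its value was seen). Control replicate 1 was the high array for Rpe65, and it was the low array for the mean of the collagens and laminins. Lens markers had a median of −0.0034 and 0 of 10 called, with Cryaa at 0.024 and Cryba1 at −0.069. At an unadjusted limma p under 0.05, 1 of them was lower and 0 higher, where 3.37% of all genes were lower. That gene was Crygs (−0.53, named after its value was seen). The part of these tissues was not tested.

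Some markers of microglia and rods passed the test. Of 9 measured microglia markers 2 rose by limma at an adjusted p under 0.05 (0.139% of all genes rose), the median was 0.34, and their summed linear signal was 1077 to 1151 in knockout against 606.9 to 611.9 in control. The called genes, named after their values were seen, were Ctss, a lysosomal protease, at 1.53 (limma adjusted p = 0.0327) and Tyrobp, a signalling adaptor, at 1.12 (limma adjusted p = 0.0347). Aif1 and Cx3cr1 did not pass, at 0.96 and 0.50 with limma adjusted p of 0.0912 and 0.469. Of the 9 microglia markers 6 lay above 0 and 3 below. At an unadjusted limma p under 0.05 there were 5 higher and 1 lower, where 3.71% of all genes were higher and 3.37% lower. The lower one was Tmem119 (−0.40, also named after its value was seen). Of 6 genes listed as astrocyte markers 0 were called, all lay above 0 and the median was 0.083, with Gfap at 0.70 and Pax2 at 0.050. Whether these genes are particular to astrocytes in this tissue was not tested. By limma 2 of them were higher at an unadjusted p under 0.05. These were Gfap and Cd44, the latter named after its value was seen, at 0.77 (limma adjusted p = 0.399). Of 10 Müller glia markers 0 were called, 7 lay above 0 and 3 below, and the median was 0.011, with Rlbp1 at −0.32 and Glul at −0.37. At an unadjusted p under 0.05, Glul was lower and Vim, named after its value was seen, higher at 0.56 (limma adjusted p = 0.219). Of 7 measured rod markers 2 fell by limma at an adjusted p under 0.05 (0.0618% of all genes fell), Gnat1 and Rom1 (the latter named after its value was seen), and the median was −0.82. All 7 were lower at an unadjusted limma p under 0.05, where 3.37% of all genes were lower. In all 7 both knockout values lay below both controls, as in 18.4% of all genes. With the replicate number, which followed the sex of the pools, as a block, the limma adjusted p was 0.0539 for Ctss, 0.0730 for Tyrobp, 0.0627 for Rom1 and 0.0429 for Gnat1, so that of these calls that of Gnat1 alone was left. The part of these cells in the member values was not tested.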

How the data were processed

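Log2 signals of 21897 probe sets on 4 arrays were used as the authors deposited them, and the log2 scale was read from the range of the values (1.34 to 12.75). The tools affy and limma are named, with no version or role, per the submitters' processing notes. The sources used here give neither the background correction nor the normalization. Per the labels' protocols, a NuGEN Pico kit amplified the RNA.

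By the platform annotation, 20877 probe sets had 1 gene symbol, 175 had several and 845 had none, and the last groups entered no test. Symbols were checked by gene ID against RefSeq (36 IDs not matched, 0 symbols changed). Each gene was represented by its brightest probe set on average, which left 19421 genes with no filter on low signal. Knockout was compared with control by limma 3.58.1 in R 4.3.3 (genotype as the only term of lmFit, then eBayes, two-sided, Benjamini-Hochberg over all 19421 genes), with a call at an adjusted p under 0.05. Fold changes and differences are log2 values of knockout less control, with limma's moderated standard error as SE. An exact permutation test of 2 against 2 arrays cannot give a p below 0.333. The steps were tested on simulated data.

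The basement membrane group was the laminins and type IV collagens. Given in full were called members, the 3 members with the smallest p in each class of at least 3, and a fixed set of well-known chains. Of related lists, the 2 genes with the smallest p were named, and of cell type lists the first 2 markers. The members and lists were chosen with earlier results of these data known. Alternatives were quantile normalization, a filter at the 50th percentile of mean signal, the mean of a gene's probe sets, the replicate number as a block, a variance trend, other basement membrane groups and leaving out each array.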

Additional observations from a re-analysis of the deposited data

How the results depend on the processing

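The count of collagen and laminin genes called was 0 under every alternative run, also for the basement membrane and fibrillar groups alone. By limma, 3 members (Col23a1, Col4a4 and Col8a2) had an unadjusted p under 0.05 without control replicate 1, 1 (Col18a1) without control replicate 2 and 0 without either knockout replicate. With the replicate number as a block, which 2 pairs cannot show to pair the pools (deviations of same-numbered pools correlated at 0.24 over all genes), 1 member had an unadjusted p under 0.05 (Col8a2, 0.0431, adjusted p = 0.592). Calls over all genes were 8 with that block, 89 of 9711 when genes below the 50th percentile of mean signal were left out, 128 with a variance trend and 0 to 11 without 1 array. The difference of the group medians, 0.020, was −0.039 with the filter on mean signal, a move beyond the spread between replicates (SD 0.039). Without 1 array it ran from −0.059 to 0.024, the basement membrane median from −0.017 to 0.063 and the fibrillar median from −0.041 to 0.096, each beyond that spread for at least 1 array. The other alternatives moved these medians and their difference by less than the spread. Among named members, Col4a2 turned to −0.0025 after quantile normalization and Col6a6 to −0.050 with the mean of its probe sets. Without 1 array, log2 fold changes that changed sign ran from −0.13 to 0.14 for Col4a2, −0.11 to 0.11 for Col9a1, −0.065 to 0.20 for Col14a1, −0.034 to 0.23 for Col17a1, −0.090 to 0.19 for Col4a1, −0.041 to 0.14 for Col2a1, −0.0066 to 0.25 for Col4a6, −0.00090 to 0.11 for Col16a1, −0.051 to 0.28 for Col6a4, −0.045 to 0.20 for Col10a1, −0.032 to 0.065 for Lamc1, −0.024 to 0.18 for Col1a1 and −0.15 to 0.31 for Col18a1. A lone array was assumed to vary like the other group. The number of arrays limits the precision, and signal over background was not used here.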
